A study of Bos taurus with 9 samples.

Results

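The genes described are 7 genes of the lining epithelium of the large bowel, out of 24616 genes in the table. They were taken by name and not by their values. KRT20, CDX1, CA2 and SLC26A3 were grouped as genes of differentiated absorptive colonocytes, and KRT8, KRT18 and EPCAM as pan-epithelial genes. The tissue was rectal, from biopsies just above the recto-anal junction (RAJ), taken from British x Continental feedlot steers on a finishing diet of barley grain. The 5 super-shedders (SS, steers 274, 287, 294, 299 and 310) had exceeded the study's threshold for E. coli O157 in feces, and not all were still above it at slaughter. The 4 non-shedders (NS, steers 108, 152, 165 and 242) were negative pen-mates, and shedding was natural, without an experimental infection. RNA of whole tissue was sequenced, 1 library per steer, so each value mixes epithelium, muscle, connective tissue and immune cells. Values are CPM, the reads of a gene scaled to a common library total. CPM is not scaled by gene length, so the levels of different genes are not ranked here.

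Colonocytes are made by dividing cells at the base of the crypts and mature while they move up to the surface, where they absorb salt and water. Keratins 8 and 18 are partners that form the intermediate filaments of simple epithelia, and EPCAM is an adhesion protein of the lateral membrane of epithelial cells throughout the crypt. Keratin 20 is added in mature surface cells, CDX1 is a homeobox transcription factor of the intestinal lining that crypt cells also express, and CA2 and SLC26A3 are a cytosolic carbonic anhydrase and the apical exchanger of chloride for bicarbonate. The ratio of a differentiation gene to a pan-epithelial gene within a library therefore sets mature colonocyte RNA against epithelial RNA, least clearly so for CDX1, and does not depend on how libraries are scaled.

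Library totals ranged from 5412523 reads in SS 274 to 12278503 in NS 108, and a count of 0 allowed 0.554 and 0.244 CPM in these libraries. All 7 genes were above this limit in every library, so epithelial RNA was detected in each sample, though little of it in some. The summed CPM of the 7 genes ran from 36.8 in SS 294 to 4286 in SS 287, which was 0.00368% to 0.429% of the reads. Next to SS 294, the sums were lowest in NS 242 (407 CPM) and SS 274 (719 CPM), and the other 6 libraries held 1445 to 4286 CPM. Lists of markers of other cell types differed between the low libraries. The summed CPM of 10 smooth muscle genes was 54161 in SS 294 and 437 in SS 274, the highest and the lowest of the 9 libraries. The 9 fibroblast genes summed to 24750.4 CPM in SS 274 and 19024 in SS 294, against 2311 to 8373 in the others. The 6 leukocyte genes summed to 2046 CPM in NS 242, against 178 to 706 in the others. No gene of these 3 lists was at 0 in any library. In whole tissue, fewer epithelial cells and less of these RNAs per epithelial cell cannot be told apart.

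**Figure D1:**
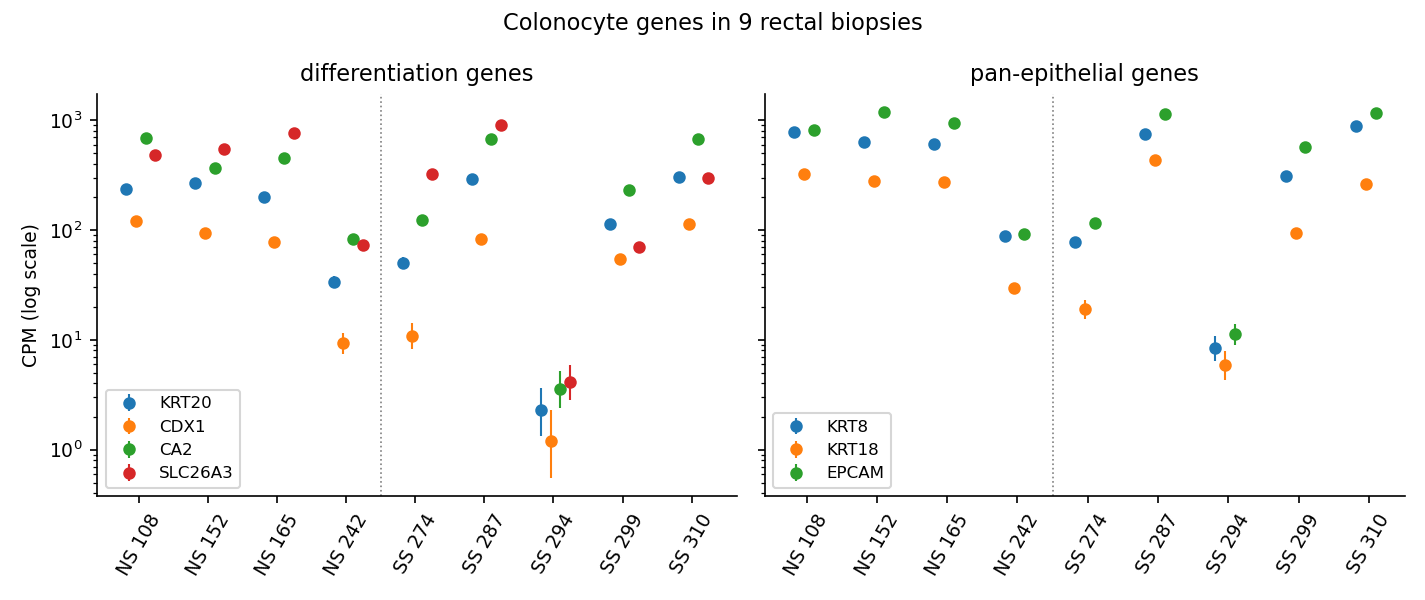
CPM (log axis) of the 4 differentiation genes and the 3 pan-epithelial genes in each steer, with NS left and SS right of the dotted line and bars giving the exact 95% counting interval. All 7 genes were lowest in SS 294, at 1.20 to 11.3 CPM, and NS 242 and SS 274 were low for most of them.

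KRT20 (ENSBTAG00000046458), the keratin of mature surface cells, was at 237, 269.9, 199 and 33.7 CPM in NS 108, 152, 165 and 242. In SS 274, 287, 294, 299 and 310 it was at 50.1, 289.7, 2.27, 113 and 303 CPM. Both groups held high and low steers, and the SS values enclosed all the NS values.

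The transcription factor CDX1 (ENSBTAG00000012014) was at 122, 94.2, 77.2 and 9.32 CPM in the 4 NS and at 10.9, 82.7, 1.20, 54.1 and 114 CPM in the 5 SS, in the same order of steers. The level of 1.20 CPM in SS 294 rested on 9 reads (exact 95% counting interval 0.549 to 2.28 CPM). For CDX1 the order of steers from 294 through 242 and 274 to 299 was that of KRT20.

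CA2 (ENSBTAG00000017733), the carbonic anhydrase, was at 693, 368, 453 and 82.6 CPM in NS, with 123, 682, 3.60, 231 and 679 CPM in SS. SLC26A3 (ENSBTAG00000015547), the anion exchanger, was at 483, 553, 766 and 72.6 CPM in NS, with 324, 907, 4.14, 70.1 and 296 CPM in SS. CA2 followed the order of KRT20 at the low end, but SLC26A3 did not. In SS 299 it was at the level of NS 242, where the other 6 genes were lower than in SS 299, and in SS 274 it was above SS 299 and SS 310.

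Of the pan-epithelial genes, KRT8 (ENSBTAG00000000836) was at 786, 637, 606 and 87.5 CPM in NS, with 77.2, 757, 8.41, 312 and 891 CPM in SS. Its partner KRT18 (ENSBTAG00000001517) was at 321, 279.6, 276 and 29.4 CPM in NS, with 19.0, 433, 5.87, 93.6 and 261 CPM in SS. EPCAM (ENSBTAG00000006474) was at 817, 1195, 951 and 92.2 CPM in NS, with 115, 1136, 11.3, 572 and 1171 CPM in SS. In each gene 3 NS lay close together and NS 242 lay far below them, while SS spread over the whole range. KRT8 and KRT18 are known for processed copies in mammalian genomes. The study names reads drawn to pseudogenes as a reason for its aligner, Tophat2. How reads with several matches were counted could not be learned from the sources used here, so the levels of both genes are less certain.

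The spread between steers was large for these genes. The highest steer exceeded the lowest by 73.8-fold for KRT18 up to 219-fold for SLC26A3, and by 8.39-fold (CA2) to 22.8-fold (KRT18) when the lowest steer, SS 294, was set aside. The SD of log2(CPM + 0.5) over 9 steers was 2.14 (CDX1) to 2.42 (SLC26A3), against a median of 0.50 over the 15410 genes tested. This was more than the SD of 98.6% to 99.4% of those genes.

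SS and NS did not differ beyond this spread in any of the 7 genes. On the log2(CPM + 0.5) scale, the NS mean of KRT20 was 7.18 ± 1.40 (SD, n = 4) and the SS mean 6.08 ± 2.79 (SD, n = 5). Its log2 fold change of SS from NS was -1.10 with an SE of 1.32, and the 95% interval ran from -4.07 to 1.87. For SLC26A3 the means were 8.45 ± 1.53 (SD, n = 4) and 6.95 ± 2.95 (SD, n = 5), with a log2 fold change of -1.50, an SE of 1.41 and an interval from -4.66 to 1.66. For EPCAM they were 9.08 ± 1.71 (SD, n = 4) and 7.98 ± 2.82 (SD, n = 5), with a log2 fold change of -1.10, an SE of 1.39 and an interval from -4.21 to 2.01. The log2 fold changes of CDX1, CA2, KRT8 and KRT18 were -1.11, -1.16, -1.24 and -1.31, with SEs of 1.27 to 1.41. All 7 intervals included 0, and their width would also allow changes of several fold in either direction.

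A gene was called where its adjusted p was under 0.05 and its log2 fold change over 1 in size. With limma, 0 of the 7 genes were called, against 0% of all genes tested. The adjusted p over all genes was 0.931 to 0.936 for the 7 genes. At an unadjusted p below 0.05, limma found 0 of the 7 and 3.96% of all genes tested. For single genes, the two-sided exact permutation p ranged from 0.365 (KRT18) to 0.603 (CA2), over the 126 divisions into 4 and 5 steers. SS and NS overlapped in all 7 genes, and 2.26% of all genes tested did not overlap. A log2 fold change below -1 was found for 7 of the 7 genes and for 4.48% of all genes tested, but the 7 genes vary together over the steers (given with their correlations) and are not separate evidence. The count depended on the fit. It was also 7 of the 7 with either other pseudocount, with no filter, and without NS 242, SS 287, SS 299 or SS 310, but 4 of the 7 with TMM or median-of-ratios scaling, 2 with library weights, and 0 in edgeR (-0.45 to -0.12), in DESeq2 (-0.44 to -0.10) and without SS 294, and it ran from 0 to 7 over the steers left out in turn. Run on the reads behind the CPM, recovered as whole numbers, edgeR's quasi-likelihood test and DESeq2 called 0 of the 7 (0% and 0.123% of all genes tested), and also found 0 of them at an unadjusted p below 0.05 (3.87% and 5.82% of all genes tested). limma with a weight for the quality of each library also called 0 of the 7 (0.0130% of all genes tested). There 1 of the 7, SLC26A3, had an unadjusted p below 0.05, with a log2 fold change of -2.11 (limma unadjusted p = 0.0285, lowest adjusted p of the 7 genes 0.841), against 5.73% of all genes tested.

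The size of the difference rested on single steers. The median log2 fold change of the 7 genes was -1.16 (median of all genes tested -0.13), -0.29 in edgeR, -0.14 without SS 294, and 0.56 without SS 274 and SS 294. Without SS 294 alone, KRT20, CA2 and EPCAM had values of 0.05, 0.11 and 0.01. Without SS 274 and SS 294, 6 of the 7 were positive, from 0.41 (KRT18) to 0.75 (EPCAM), and SLC26A3 was at -0.39. These were the SS steers with the lowest sums of the 7 genes (719 and 36.8 CPM), while NS 242 (407 CPM) was kept. An upward shift thus followed from the choice of steers, and no fit left out all 3. Leaving out NS 242, the low NS, moved the median to -1.95. Scaling by TMM or by the median of ratios moved the median of all genes to -0.01 and 0.01 and that of the 7 genes to -1.03 and -1.01. The smooth muscle, fibroblast and leukocyte sums given above differed most from the rest in these same 3 steers, and their part in the differences was not tested.

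**Figure D2:**
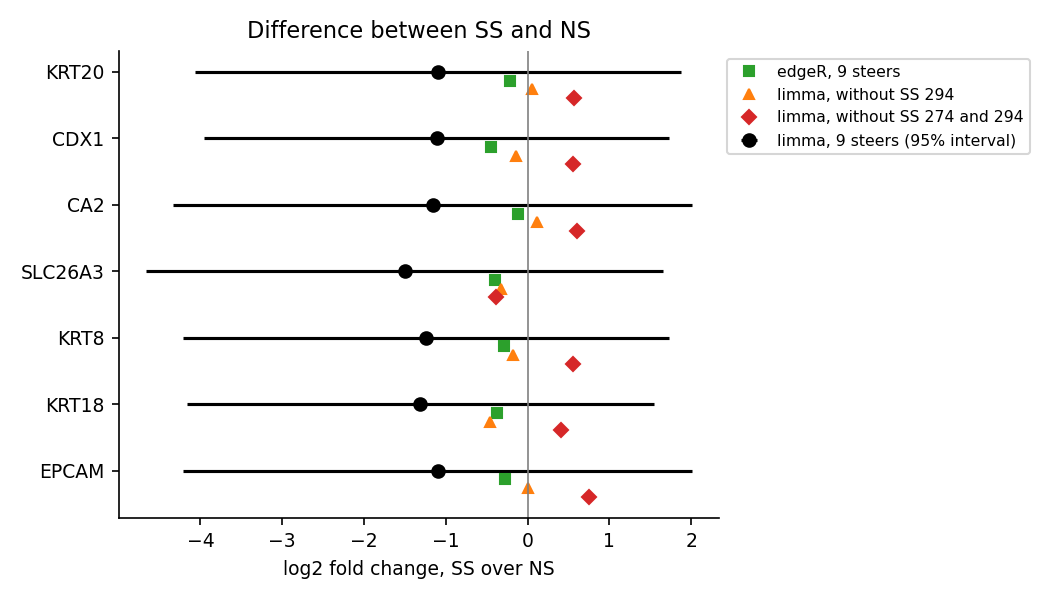
Log2 fold change of SS over NS for each gene. Black points with bars are the limma estimate in 9 steers with its 95% interval, and the coloured symbols are the edgeR estimate and the limma estimates without SS 294 or without SS 274 and SS 294. All intervals include 0, and 6 of the 7 genes lie above 0 without SS 274 and SS 294.

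The differentiation genes and the pan-epithelial genes were next compared within each library. Per steer, the mean log2(CPM + 0.5) of KRT20, CDX1, CA2 and SLC26A3 minus that of KRT8, KRT18 and EPCAM was -0.91, -1.15, -1.0 and -0.72 in the 4 NS. In SS 274, 287, 294, 299 and 310 it was 0.31, -1.04, -1.51, -1.35 and -1.16. The group means were equal to 2 decimals, at -0.95 ± 0.18 (SD, n = 4) for NS and -0.95 ± 0.73 (SD, n = 5) for SS. The SS steers lay on both sides of the NS steers, with SS 274 alone above 0. Without CDX1 the difference of SS from NS was -0.04. Over the 9 steers this difference had an SD of 0.53, against 2.23 and 2.24 for the means of the 4 and of the 3 genes. Most of the variation between biopsies was thus shared by both gene classes.

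Each of the 12 ratios of a differentiation gene to a pan-epithelial gene gave a mean difference of SS from NS of 0.41 or less in size on the log2 scale. The two-sided exact permutation p of the 12 ratios ranged from 0.524 (CDX1/KRT8) to 0.984 (KRT20/EPCAM), without adjustment, so none passed 0.05. The largest difference was that of SLC26A3/EPCAM, with a mean log2 ratio in NS of -0.63 ± 0.38 (SD, n = 4) and in SS of -1.04 ± 1.72 (SD, n = 5) (exact permutation p = 0.667). Its SD was thus wider in SS than in NS, a difference that was not tested. The sign of several of these small differences turned when 1 steer was left out. Without SS 274, the SLC26A3 ratios to KRT8, KRT18 and EPCAM differed by -0.89, -0.99 and -1.04 between SS and NS (exact permutation p = 0.171, 0.0857 and 0.143).

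KRT20 and CDX1 kept a narrow ratio to EPCAM in libraries that differed 105-fold in EPCAM. KRT20/EPCAM was 0.291, 0.226, 0.209 and 0.365 in NS and 0.436, 0.255, 0.200, 0.197 and 0.258 in SS, a 2.21-fold range. CDX1/EPCAM ranged 2.05-fold, from 0.0728 in SS 287 to 0.149 in NS 108. In SS 294, with the least epithelial RNA, KRT20/EPCAM had an exact 95% counting interval of 0.111 to 0.339 and CDX1/EPCAM one of 0.0468 to 0.211, and both intervals covered the median steer.

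CA2/EPCAM was somewhat wider, 3.48-fold, from 0.308 in NS 152 to 1.07 in SS 274. KRT8/EPCAM ranged 1.81-fold, and KRT18/EPCAM 3.16-fold, from 0.164 in SS 299 to 0.518 in SS 294. The keratin partners were not in a fixed proportion. KRT18/KRT8 was 0.409, 0.439, 0.456 and 0.336 in NS and 0.246, 0.573, 0.698, 0.300 and 0.293 in SS. The SS ratios lay on both sides of the NS ratios, and the highest, in SS 294, rested on 44 reads of KRT18 and 63 of KRT8 (interval 0.464 to 1.04).

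Of the 6 members set against EPCAM, SLC26A3 had the widest range of ratios. SLC26A3/EPCAM was 0.592, 0.463, 0.805 and 0.788 in NS, and 2.82, 0.798, 0.365, 0.123 and 0.253 in SS 274, 287, 294, 299 and 310. The range was 23.0-fold, from 0.123 (counting interval 0.112 to 0.135) in SS 299 to 2.82 (2.57 to 3.09) in SS 274, and 4 NS lay within 0.463 to 0.805. Counting error covered neither end, since these ratios rested on 498 and 4059 reads in SS 299 and on 1754 and 622 reads in SS 274. Against KRT20 in place of EPCAM, the lowest and highest steers were again SS 299 (0.622) and SS 274 (6.47), a 10.4-fold range, and against CA2 they were the same steers, 8.67-fold apart. For the smooth muscle sum, SS 299 was second highest (28089.6 CPM) and SS 274 lowest. SS 294, with the highest sum, had a ratio of 0.365 on 31 and 85 reads, and SS 310 had 0.253 at a sum of 4609 CPM. The counting interval of SS 294 (0.234 to 0.556) covered the ratio of SS 310, so these 2 steers are not ordered. The part of smooth muscle in the ratio was not tested. Whether the spread of SLC26A3 exceeds that of the other ratios was not tested.

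**Figure D3:**
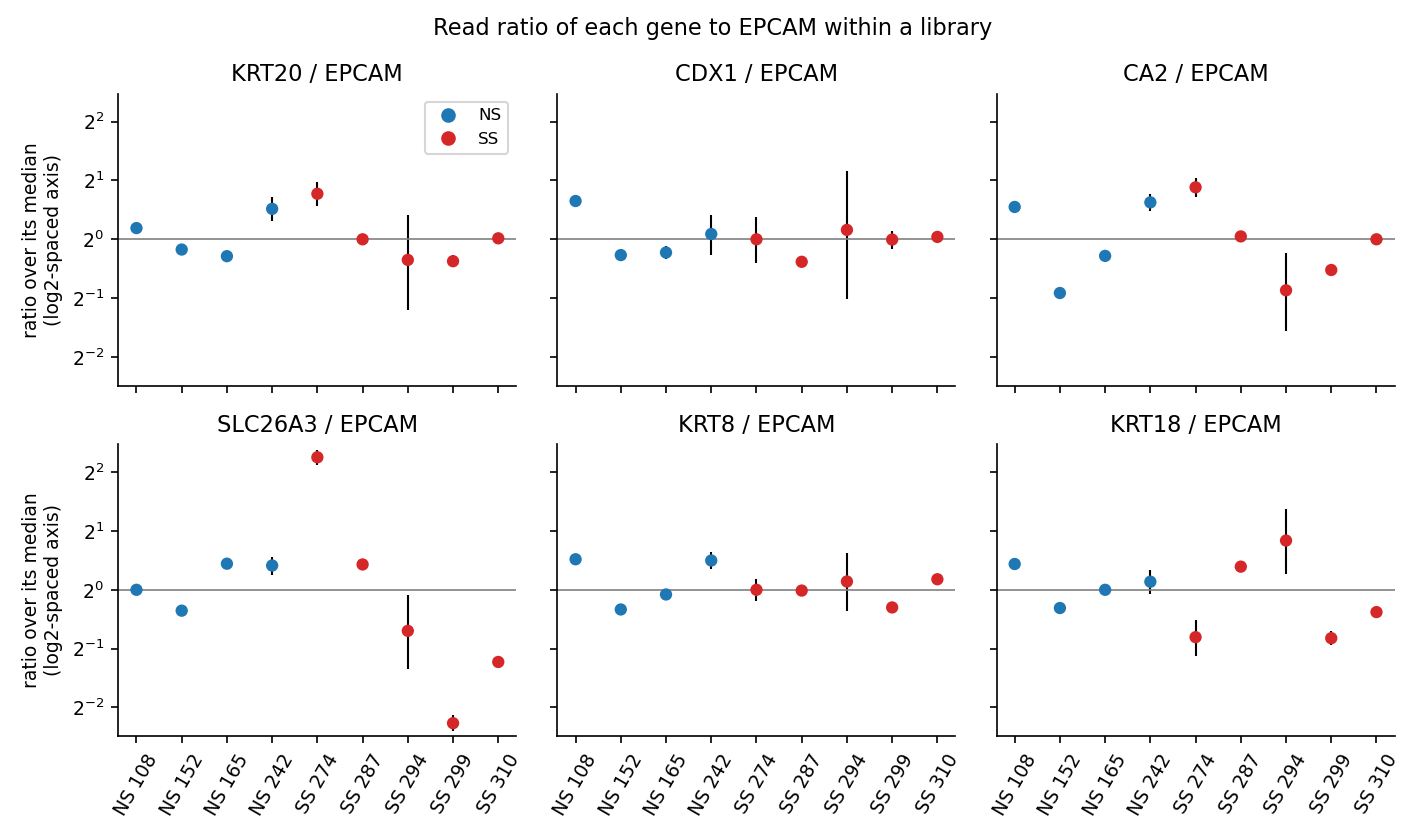
Ratio of each gene to EPCAM in the same library, divided by its median over 9 steers (log2-spaced axis), with exact 95% counting intervals. KRT20, CDX1 and KRT8 stay within a 2.21-fold range, and SLC26A3 spans 23.0-fold between SS 299 and SS 274.

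Some of the other colonocyte genes of the comparison list had the same steers at the ends. Of 23 such genes 8 had an identifier with a name. CA4, the carbonic anhydrase anchored at the apical membrane, was at 48.5, 105, 89.0 and 8.86 CPM in NS, with 48.8, 119, 1.87, 7.46 and 77.6 CPM in SS. CA4/EPCAM was 0.0594 to 0.0961 in NS, 0.0131 (counting interval 0.00976 to 0.0171) in SS 299 and 0.424 (0.366 to 0.491) in SS 274, a 32.5-fold range with the same lowest and highest steer as SLC26A3. GUCA2A, which encodes the peptide guanylin, also had its lowest ratio to EPCAM in SS 299 (0.0719) and its highest in SS 274 (0.314), 4.36-fold apart. In all, SS 274 had the highest ratio for 5 of the 8 genes and for 3 of the 6 members set against EPCAM, and SS 299 had the lowest for 3 of the 8 and for 3 of the 6. The pattern was not limited to colonocyte genes. TSPAN1/EPCAM, from the pan-epithelial list, was also lowest in SS 299 (0.420) and highest in SS 274 (2.09), 4.99-fold apart. Of the 7 other pan-epithelial genes, SS 274 had the highest ratio for 2 (CDH1 and TSPAN1) and the lowest for 2 (KRT19 and PIGR). SS 294 had the highest ratio for 3 of these 7 genes. Of the 8 colonocyte genes it had the highest for 2 and the lowest for 2. CA4, GUCA2A and TSPAN1 were singled out here after their values were seen.

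LGALS4, a galectin of the gut epithelium, and CDH17, the intestinal cadherin, kept to EPCAM within 1.57-fold and 2.00-fold. KLF4 and SLC26A2, a factor of surface cells and a sulfate transporter, did not. KLF4/EPCAM was 6.32 and SLC26A2/EPCAM 1.26 in SS 294, against medians of 0.244 and 0.135 over 9 steers. Both ratios were also above these medians in SS 274 (3.65 and 0.342) and NS 242 (0.855 and 0.473). Of the pan-epithelial list, DSP, KLF5 and EZR also had their highest ratio to EPCAM in SS 294, at 4.46, 1.28 and 14.1. What other cells added to these RNAs was not tested. The CPM of KLF4 and SLC26A2 was nonetheless lowest in SS 294, at 71.7 for KLF4 and 14.3 for SLC26A2. KLF4 was highest in SS 274, at 419 CPM.

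**Figure D4:**
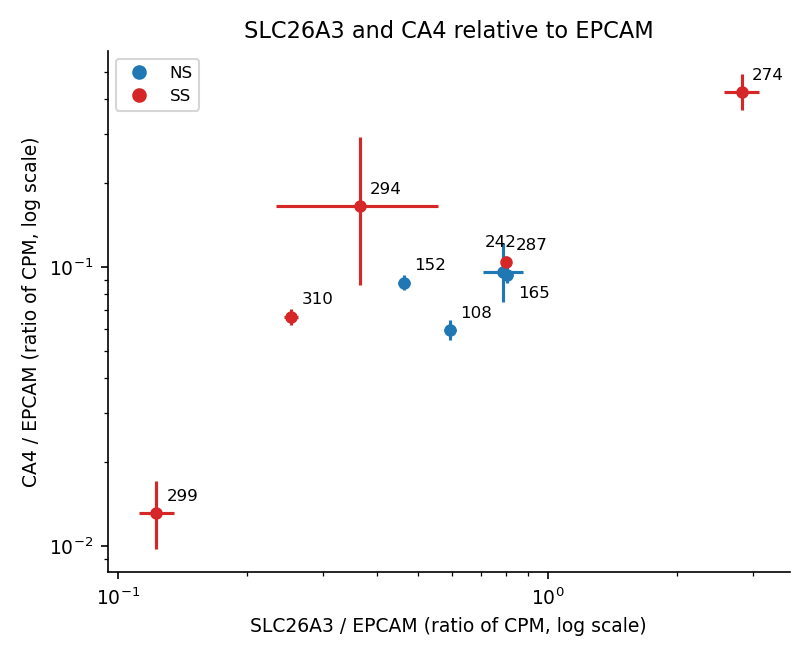
Ratio of SLC26A3 (horizontal, log scale) and of CA4 (vertical, log scale) to EPCAM in each steer, with exact 95% counting intervals and steer numbers. SS 274 is highest and SS 299 lowest on both axes, and the 4 NS lie between them. Both axes share EPCAM as denominator.

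Over the 9 steers the 7 genes varied together. In the 21 pairs, Pearson's r of log2(CPM + 0.5) was 0.83 to 0.99 with a median of 0.97, and its exact permutation p was at most 0.00670, before and after Benjamini-Hochberg adjustment over the pairs. Spearman's rho was 0.53 to 0.95, with an exact permutation p of 3.53e-04 to 0.148, below 0.05 for 17 pairs before adjustment and for 16 after it. All pairs share the same libraries and their depth, and NS and SS were pooled. With the 2 steers farthest from the median left out (294 with 242, 274 or 299, by the gene on the x axis), the 15 pairs without SLC26A3 kept r of 0.86 to 0.99, each with an exact permutation p of 0.0187 or less, while their rho ranged from 0.39 (CA2 with EPCAM) to 0.93 (CDX1 with KRT8). In the 6 pairs with SLC26A3, r dropped to between 0.25 (CDX1) and 0.77 (EPCAM), and the exact permutation p was below 0.05 only for EPCAM (0.0427). By this rule r of SLC26A3 fell to 0.46 with KRT20, 0.25 with CDX1 and 0.49 with CA2. With KRT8 and KRT18 it was still 0.69 and 0.72 (exact permutation p = 0.0942 and 0.0635). With fewer steers, a p above 0.05 does not show that a relation was lost. Which steers were left out also mattered. With SS 274 and SS 294 left out for every pair, r of SLC26A3 was 0.70 with CDX1 (exact permutation p = 0.0514) and 0.75 to 0.90 with the other 5 genes, at an exact permutation p of 0.00635 (KRT18) to 0.0442 (KRT8). KRT8 and KRT18 had r = 0.98 (exact permutation p = 1.96e-04) and rho = 0.82 (exact permutation p = 0.0108), and r = 0.97 without SS 274 and SS 294.

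Among 2043 genes with a name, the most similar to the mean of the 4 differentiation genes over 9 steers was TFF3, a trefoil peptide that goblet cells secrete (r = 0.995). TFF3 was at 219.6, 260.3, 225 and 33.6 CPM in NS, with 49.5, 288, 1.07, 82.2 and 342 CPM in SS. Next, each at r = 0.99, came TSPAN1, a tetraspanin, FABP1, which binds fatty acids in the cytosol, IQGAP2, a scaffold protein, and ATP1B3, a subunit of the sodium pump. Most similar to the mean of the 3 pan-epithelial genes were LGALS4 (r = 0.999), KRT19 (0.998), B3GNT3 (0.997), CHST4 (0.995) and FAM3D (0.99). KRT19 is a further keratin of simple epithelia, B3GNT3 and CHST4 build and sulfate glycans, and FAM3D is a secreted protein of the gut. LGALS4 stood in the colonocyte list, and its profile was nonetheless close to that of the pan-epithelial members. The member CDX1 likewise had r = 0.99 with the mean of the 3 pan-epithelial genes and 0.97 with the mean of the 4 differentiation genes, of which it is itself 1. These r are a description over 9 libraries, and SS 294 was lowest for each of these 10 genes.

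The profile of the difference between both means was led by SS 274. The genes with the highest r to it were LDHB (0.97), a lactate dehydrogenase subunit, and TKT and TALDO1 (0.95 each), enzymes of the pentose phosphate pathway. All 3 were highest in SS 274, at 366 CPM for LDHB against 111 to 171 CPM in the other 8 steers. Without SS 274 their r was 0.84, 0.80 and 0.83. At the other end were ALCAM (-0.96), an adhesion molecule, UBE2G1 (-0.94), a ubiquitin-conjugating enzyme, and CAMK2D (-0.94), a calmodulin-dependent kinase. Without SS 274, r was -0.96 for ALCAM, -0.61 for UBE2G1 and -0.70 for CAMK2D.

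In the other epithelial lists no gene was called between SS and NS. Of the 8 named genes among 23 other colonocyte genes, limma called 0 and found 0 at an unadjusted p below 0.05, with a median log2 fold change of -0.97. Of the 7 named genes among 16 other pan-epithelial genes, limma called 0, and EZR (ezrin, which links membrane and actin and is also expressed outside epithelium) had an unadjusted p below 0.05. EZR had a log2 fold change of -0.93 (limma unadjusted p = 0.00873, adjusted p = 0.928), and the median of the 7 was -0.93. It did not follow the epithelial profile, since NS 242 had 512 CPM and the other NS 493 to 612 CPM. Of 9 goblet cell genes 4 were named, 0 of them had an unadjusted p below 0.05 in limma, and the median was -1.41.

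The 4 goblet genes did not share one position relative to EPCAM in SS 274. SPINK4/EPCAM was 0.0981 and AGR2/EPCAM 1.25 there, the lowest of the 9 steers, against medians of 0.573 and 3.52, while TFF3/EPCAM (0.431) was the highest and CLCA1/EPCAM (7.0) lay within the NS range of 4.27 to 8.10. Of 12 genes of the crypt base and of dividing cells, PCNA alone was named, a clamp of DNA replication that all dividing cells use. Its log2 fold change was -0.97 (limma unadjusted p = 0.0348, adjusted p = 0.928), and it was highest in NS 242 (151 CPM), the steer with the highest leukocyte sum. A comparison of mature with dividing colonocytes was therefore not made with the names available here. None of 9 genes of squamous epithelium, the lining on the anal side of the junction, was named, so its share was not analysed here.

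The markers of other cell types also showed no called gene. Median log2 fold changes were -0.53 for 10 smooth muscle genes and 0.41 for 9 fibroblast genes, where limma found 0 at an unadjusted p below 0.05. Of 6 leukocyte genes, with a median of -1.14, limma found 2 lower in SS at an unadjusted p below 0.05, the B cell genes CD79A and MS4A1 (adjusted p of 0.928 for both). The names of both came from the study's list of differing genes in these steers, so they are not independent evidence of a direction. The summed CPM was 2905 to 16225 in NS and 437 to 54161 in SS for smooth muscle, 3901 to 8373 and 2311 to 24750.4 for fibroblasts, and 445 to 2046 and 178 to 706 for leukocytes. The groups overlapped in all 3 sums.

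**Figure D5:**
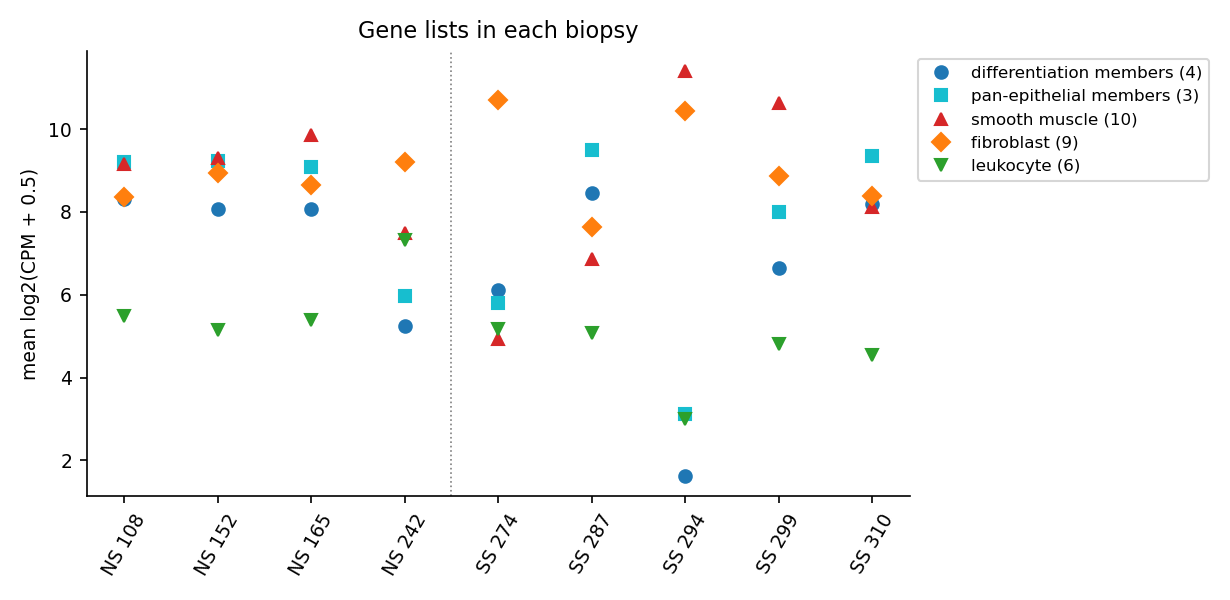
Mean log2(CPM + 0.5) of the 4 differentiation genes, the 3 pan-epithelial genes and the lists of smooth muscle (10 genes), fibroblast (9) and leukocyte (6) markers in each steer, with NS left of the dotted line. The epithelial means are lowest in SS 294, NS 242 and SS 274, where smooth muscle, leukocyte and fibroblast lists, in that order, are at their highest.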

How the data were processed

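RNA of whole rectal tissue (a pair of biopsies per steer) was sequenced from 5 SS and 4 NS. Libraries were stranded, paired-end and depleted of rRNA, and the authors mapped the reads to UMD3.1 with Tophat2. HTSeq and edgeR are also named in the submitters' processing notes, without their settings. The deposited values are CPM for 24616 Ensembl genes, and 100% of them were whole multiples of 1 read within 0.01 reads, so reads were recovered. Groups came from the sample titles. The sources used here name no sequencing batch.

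limma 3.58.1 (R 4.3.3, eBayes with trend) was run on log2(CPM + 0.5) for 15410 genes that reached 0.5 CPM in 4 or more steers, and p was adjusted by Benjamini-Hochberg. Fold changes on this scale understate those of low genes. edgeR 4.0.16 and DESeq2 1.42.0 on recovered reads, other pseudocounts (0.1 and 1), no filter, other scalings, library weights and omitted steers were alternatives. On simulated data, in which genes varied independently, only the main limma fit and the edgeR and DESeq2 fits were run. Exact permutation tests, two-sided, used Python 3.11.15 and numpy 2.4.6. Counting intervals are exact binomial intervals at 95%, for levels and for ratios, the limit for a count of 0 is 3 reads, and both cover counting error only. Separate animals were the replicates.

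Named were the 7 genes, the genes most similar to them in profile (5 for each mean, 3 at each end of their difference) and genes of the comparison lists where a sentence needed them. The genes and lists were chosen with earlier results of these data known. Names came from the study's supplementary gene lists as available here, part of which was cut short, for 2052 identifiers. A gene without a name here may thus be named in the study. Coordinates and sequences were not used here.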

Additional observations from a re-analysis of the deposited data

Results flagged for a closer look

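Dixon's test at the 95% level was run on 40 groups of 4 or 5 steers (the 7 genes, the ratios and the difference of means, in NS and in SS), and 6 stood out, where chance gives about 1 in 20. In NS, steer 242 lay far below the other 3 for KRT20 (log2(CPM + 0.5) of 5.10), KRT8 (6.46), KRT18 (4.90) and EPCAM (6.53), and these 4 are not separate, since the genes vary together. The leukocyte list was highest in this steer, and its part was not tested.

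In SS, steer 274 lay above the other 4 in the difference of the differentiation mean from the pan-epithelial mean (0.31, against -1.51 to -1.04), and in the log2 ratio of KRT20 to KRT8 (-0.62). Without SLC26A3 the difference in SS 274 was -0.43, still the highest of the 9 steers, which otherwise held -1.71 to -1.04. SS 274 was the shallowest library, had the highest fibroblast sum and is the library for which the study lists the lowest mapped share of reads, and the part of each was not tested.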

How the results depend on the processing

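No paired analysis was possible because each steer is in 1 group only, and the sources used here do not say which NS shared a pen with which SS. Without SS 274 and SS 294 together, the median log2 fold change of the 7 genes was 0.56, with KRT20 at 0.57, CDX1 0.56, CA2 0.60, KRT8 0.56, KRT18 0.41 and EPCAM 0.75. This omission took low steers from SS only, and the low NS 242 was kept. Leaving out 1 steer at a time, the median ran from -1.95 (without NS 242) to -0.14 (without SS 294), KRT20 from -1.80 to 0.05, CA2 from -1.80 to 0.11 and EPCAM from -1.95 to 0.01, with the same 2 steers at the ends. The number of all genes called was 0 in limma, 2 with library weights, 19 in DESeq2, and 0 or 1 with 1 steer left out (1 without NS 108 and 1 without SS 299). With library weights 1 of the 7 genes had an unadjusted p below 0.05. The count of all genes at an unadjusted p below 0.05, 610 in limma, was 380, 316, 404 and 355 without NS 108, NS 242, SS 274 and SS 294, 1177 without SS 287, and 326 without SS 274 and SS 294.

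With 1 steer left out, 10 of the 12 ratio differences turned sign, and CDX1/KRT8 (0.03 to 0.23) and CDX1/KRT18 (0.03 to 0.44) did not. KRT20/KRT8 ran from -0.04 to 0.23, KRT20/KRT18 from -0.14 to 0.51, KRT20/EPCAM from -0.18 to 0.15, CDX1/EPCAM from -0.15 to 0.17, CA2/KRT8 from -0.16 to 0.29, CA2/KRT18 from -0.25 to 0.57, CA2/EPCAM from -0.36 to 0.15, SLC26A3/KRT8 from -0.89 to 0.16, SLC26A3/KRT18 from -0.99 to 0.14 and SLC26A3/EPCAM from -1.04 to 0.09. With a pseudocount of 1, KRT20/EPCAM was 0.03 and CDX1/EPCAM 0.04. The difference of the 2 means ran from -0.32 (without SS 274) to 0.13 (without SS 294). Beyond the turns named here, the cause of which was not tested, 117 values for single genes kept their direction, with none of the 7 genes called under any alternative (though SLC26A3 passed an unadjusted p of 0.05 with library weights), and 118 of 144 for single ratios kept their direction with an exact permutation p above 0.05. Scaling by TMM or median of ratios changed no direction of the fold changes of the 7 genes or of their correlations, and was not run for the ratios. Counting error was widest in SS 294, where CDX1 had 9 reads and EPCAM 85 at a library total of 7492386 reads, above those of SS 299 and SS 274.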
